A study of Mus musculus with 8 samples.

Results

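The genes described here encode parts of respiratory complexes III and IV and of ATP synthase. They were taken from the table by symbol: every target starting with Uqcr, with Cox followed by a digit or with Atp5, together with Cyc1. The rule gave 44 of 23930 targets. They were 9 subunits of complex III, 16 subunits and 6 assembly factors of complex IV, 10 subunits of ATP synthase and 3 other Atp5 symbols. Of the 44, 40 averaged at least 1 RPM over all libraries, RPM being reads scaled to the same total in every library, and were tested among 11004 such targets. RNA came from tibialis anterior, a fast muscle of the mouse lower leg, in 4 WT and 4 KO libraries, and n was 4 per group throughout. KO mice carried loxP sites in Sdhc and a tamoxifen-inducible Cre driven by a skeletal muscle actin promoter (HSA-Cre), so that recombination was directed to muscle fibres and not to the other cells of the tissue. WT mice were littermates that carried this Cre without loxP sites. Both groups were given tamoxifen at an age of 12 weeks, and tissue was taken after a further 3 weeks. The strain label reads C57BL/6 for all WT libraries and C57BL/7, C57BL/8, C57BL/11 and C57BL/12 for KO1 to KO4, whereas the growth protocol gives a C57/B6 background. The comparison asks how transcripts of the chain downstream of complex II stood after Sdhc, the gene of a membrane subunit of complex II, had been deleted.

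Complex III takes electrons from ubiquinol, which complexes I and II supply, and passes them to cytochrome c. Complex IV (cytochrome c oxidase, COX) passes them on to oxygen, and ATP synthase makes ATP from the proton gradient that the chain builds. Several COX subunits exist as pairs of isoforms, 1 made in most tissues and 1 in heart and skeletal muscle, and the muscle form prevails in mature fibres. The catalytic COX subunits, cytochrome b and 2 ATP synthase subunits are encoded in mitochondrial DNA, and these genes were not analysed here.

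Each gene was read through 1 amplicon of unstated position, so levels of different genes are not transcript abundances on 1 scale. The libraries held 5983175 to 9119006 reads, and 3 reads, used as the floor, corresponded to 0.329 to 0.501 RPM. Sdhc, the targeted gene, stood at 737, 853, 848 and 748 RPM (WT1 to WT4) against 16.9, 46.5, 18.7 and 54.3 RPM (KO1 to KO4), the KO mean being 4.28% of the WT mean. The targeted gene thus matched the labels of all 8 libraries (log2 fold change -4.68 with an SE of 0.31, limma adjusted p = 1.06e-05). Fast fibre genes, summed over 10 markers, reached 136925 to 192089 RPM (WT) against 150731 to 208346 RPM (KO), so the labelled muscle carried its defining genes. Marker sums for bone (416 to 6644 RPM in WT, 148 to 380 RPM in KO), fibroblasts (888 to 1389 against 379 to 750 RPM) and macrophages (36.1 to 180 against 19.3 to 28.0 RPM) did not overlap between the groups, with WT1 and WT4 highest in each. Col1a1 made up most of the bone sum (374 to 5566 RPM in WT, 133 to 351 RPM in KO). Of the bone markers, Col1a1, Acp5, Mmp9 and Spp1 did not overlap between the groups, while Ibsp, Ctsk, Alpl and Phex did. Phex averaged more in KO (1.73 RPM) than in WT (0.85 RPM). At an unadjusted p under 0.05, 7 of 8 tested bone markers, 5 of 6 fibroblast markers and 5 of 5 tested macrophage markers were lower in KO. Over all tested targets this share was 8.56%, and 4.56% had every KO library below every WT library. None of these markers passed a limma adjusted p of 0.05. The macrophage marker C1qa was at 0 in 7 of 8 libraries and the brown fat marker Ucp1 was at 0 in all 8. In bulk tissue, fewer cells of a type and less RNA per cell cannot be told apart.

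None of the 40 tested genes passed an adjusted p of 0.05 (limma, Benjamini-Hochberg over all targets; every adjusted p below is from this fit unless another tool or setting is named), where 3 of 11004 targets did, all lower in KO (0.0273%). DESeq2 and edgeR on the recovered reads called 0 of the 40 as well, against 149 and 1 of all targets. At an unadjusted p under 0.05, 1 of the 40 was lower in KO (2.5%, Cox6a1), against a background of 8.56% of all targets, and 0 were higher, against 0.663%. Fold changes were spread evenly around 0, with 20 genes above and 20 below, a median log2 fold change of 0.00 and a range from -0.42 to 0.28. The median over all tested targets was -0.05, and 59.2% of them lay below 0. The 95% intervals of all 40 lay within a log2 change of 1 in either direction, those of 30 within 0.5, and 39 included 0. In 2 genes, Cox6a1 and Cox7b, the highest KO reading was under the lowest WT reading (5.0%, background 4.56%), and in 0 genes the lowest KO reading was over the highest WT reading (background 0.536%). The split of the whole table moved with scaling: 942 targets were lower and 73 higher at an unadjusted p under 0.05 as deposited, against 751 and 355 after TMM scaling, 730 and 383 after median-ratio scaling and 594 and 416 after quantile scaling. With TMM or median-ratio scaling, 27 of the 40 genes lay above 0 in place of 20, and still 0 were called.

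**Figure D1:**
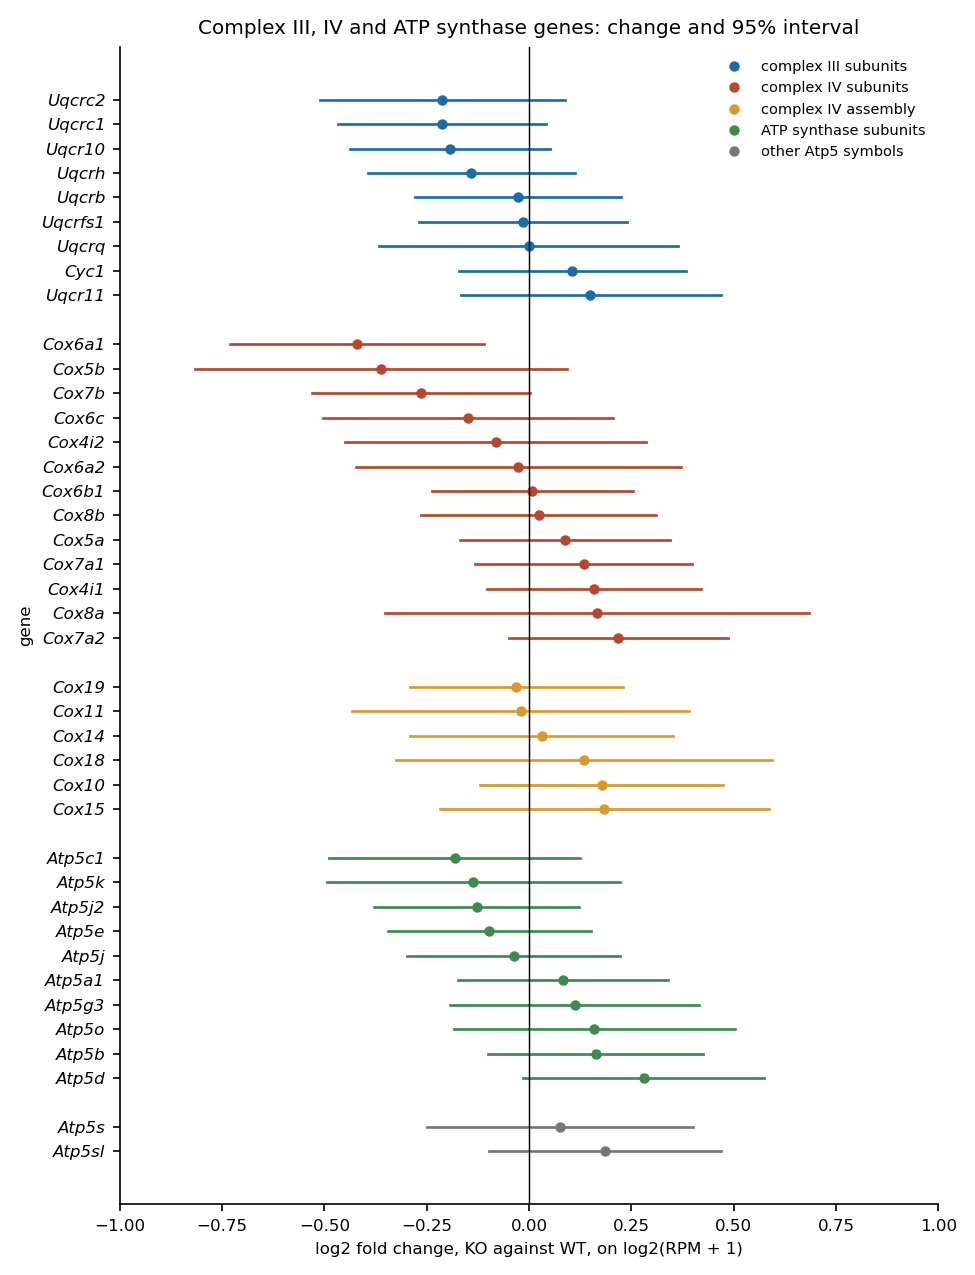
Log2 fold change of KO against WT on log2(RPM + 1) for the 40 tested genes (points, coloured by class) with 95% intervals from limma (lines), 4 libraries per group. The points run from -0.42 to 0.28, and the line of 1 gene, Cox6a1, does not cross 0.

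Summed over all 44 genes, these transcripts took 3.608 to 3.993% of the reads in WT and 3.629 to 3.931% in KO. ATP synthase subunits made up the largest share of these reads, with 18090 ± 162 RPM (WT) against 18129 ± 501 RPM (KO) (mean ± SD). Each sum covers only the genes that the rule matched, read through 1 amplicon each. The sums are therefore not levels of whole complexes. Complex IV subunits summed to 10616 ± 1096 and 10424 ± 576 RPM, and complex III subunits to 8730 ± 574 and 8190 ± 423 RPM. The groups overlapped in every sum, and the differences were within 1 SD of the WT libraries. Complex IV assembly factors summed to 510 ± 73.4 RPM (WT) against 527 ± 45.7 RPM (KO). The 3 other Atp5 symbols summed to 88.2 ± 12.6 and 97.4 ± 7.5 RPM.

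**Figure D2:**
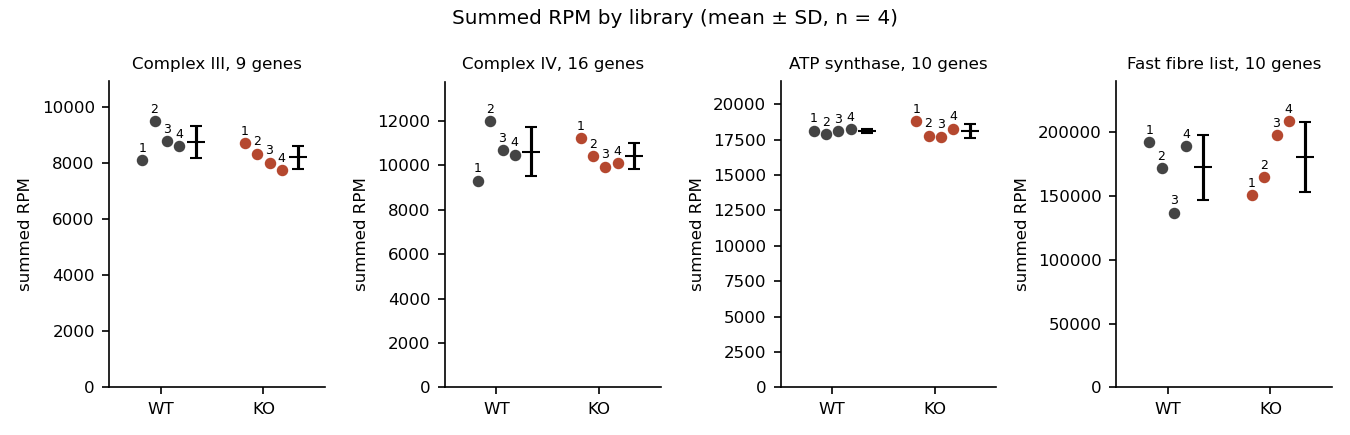
Summed RPM per library (numbered points) for complex III, complex IV and ATP synthase subunits and for the fast fibre markers, with mean ± SD of 4 libraries. WT and KO overlap in each panel, and the ATP synthase sums of WT have an SD of 162 RPM.

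No complex III subunit passed the test, and 0 of 9 reached an unadjusted p under 0.05. Of their log2 fold changes 7 were below 0 (77.8%), against 59.2% of all tested targets. They ranged from -0.21 to 0.15 with a median of -0.03. That median was 0.03 after TMM scaling and -0.15 without WT1 and WT4. Uqcrc1, core protein 1 on the matrix side and the most abundant amplicon of the complex, read 1942, 2394, 2151 and 2284 RPM (WT1 to WT4) against 1937, 1892, 1978 and 1747 RPM (KO1 to KO4). WT2, WT3 and WT4 lay above every KO library, while WT1 lay among them (log2 fold change -0.21, 95% interval -0.47 to 0.04, adjusted p = 0.650). Its partner Uqcrc2, core protein 2, read 553, 717, 673 and 608 RPM (WT) against 589, 652, 450 and 522 RPM (KO). The lowest readings were those of KO3 and KO4, and the groups overlapped (log2 fold change -0.21, 95% interval -0.51 to 0.09, adjusted p = 0.744). Uqcr10, a small membrane subunit, read 1444, 1330, 1231 and 1288 RPM (WT) against 1254, 1065, 1175 and 1134 RPM (KO). KO1 alone reached into the WT range (log2 fold change -0.19, 95% interval -0.44 to 0.05, adjusted p = 0.682).

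For the electron-carrying subunits the group means differed by less than 1 SD. Cyc1, cytochrome c1, averaged 1045 ± 121 RPM (WT) against 1123 ± 115 RPM (KO), and Uqcrfs1, the Rieske iron-sulfur protein, averaged 1200 ± 134 and 1182 ± 40.8 RPM. Their 95% intervals ran from -0.17 to 0.38 and from -0.27 to 0.24. The other small subunits, Uqcrb, Uqcrq, Uqcrh (the hinge protein) and Uqcr11, had log2 fold changes of -0.03, 0.00, -0.14 and 0.15. RefSeq names 2 pseudogenes after Uqcrh, and exons of Uqcrc2 and Uqcrb overlap an annotated gene on the opposite strand, so these readings are uncertain where the counting could split or share reads. The 6 assembly factors of complex III outside the rule gave 0 genes at an unadjusted p under 0.05 and a median log2 fold change of 0.08. Uqcc1, needed for cytochrome b synthesis, read 179 to 216 RPM (WT) against 198 to 255 RPM (KO) (log2 fold change 0.19, adjusted p = 0.734). Uqcc3 stood at -0.18 (adjusted p = 0.775) and Ttc19, which acts at the Rieske protein, at 0.09 (adjusted p = 0.923).

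Among complex IV subunits the 3 isoform pairs were read first. Promoters are shown for Cox8a and Cox8b, a pair whose forms held different motifs, and for Cox6a1, the gene with the smallest p. They are from RefSeq (GRCm38.p6), from 250 bases before to 50 bases after the start, printed 5′ to 3′ along the gene. No promoter of Cox6a2 is described, so the Cox6a pair was not compared in this way. Capitals mark the letters GCGCATGC (NRF1, a nuclear activator of respiratory genes), CCGGAAG (ETS, the core that GABP binds) and CAGCTG (an E-box of the kind bound by MyoD), each searched on both strands. Cox6a1 lies on the minus strand at chr5:115348909-115349208, Cox8a on the minus strand at chr19:7217567-7217866 and Cox8b on the minus strand at chr7:140900397-140900696.
Cox6a1: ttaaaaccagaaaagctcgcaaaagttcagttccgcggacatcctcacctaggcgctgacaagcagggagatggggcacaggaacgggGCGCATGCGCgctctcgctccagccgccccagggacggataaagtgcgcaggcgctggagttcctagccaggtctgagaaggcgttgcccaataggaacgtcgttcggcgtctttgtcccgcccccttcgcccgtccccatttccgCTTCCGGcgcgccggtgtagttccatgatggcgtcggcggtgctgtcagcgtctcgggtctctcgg
Cox8a: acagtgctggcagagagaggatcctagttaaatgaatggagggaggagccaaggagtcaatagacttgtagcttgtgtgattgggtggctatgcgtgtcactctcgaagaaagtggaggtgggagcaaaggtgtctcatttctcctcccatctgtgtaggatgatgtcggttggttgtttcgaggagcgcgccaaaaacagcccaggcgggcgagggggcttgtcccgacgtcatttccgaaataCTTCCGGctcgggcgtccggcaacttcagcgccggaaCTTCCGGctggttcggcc
Cox8b: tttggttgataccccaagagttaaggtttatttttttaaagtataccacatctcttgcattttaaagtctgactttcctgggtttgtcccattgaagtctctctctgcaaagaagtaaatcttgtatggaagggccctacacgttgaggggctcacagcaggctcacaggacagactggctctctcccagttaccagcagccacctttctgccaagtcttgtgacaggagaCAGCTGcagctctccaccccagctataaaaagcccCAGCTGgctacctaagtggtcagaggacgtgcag
Cox6a1 held the NRF1 letters on both strands in 1 overlapping stretch and the ETS letters once, Cox8a held the ETS letters at 2 places, and Cox8b held 2 E-boxes and neither of the others. The promoters of Cox7a1, Cox7a2 and Cox7b held none of the 3 motifs. Promoters were matched for 30 of the 44 genes, 33 promoters in all. The NRF1 letters were in 4 of these (12.1%, genes Atp5k, Cox6a1, Uqcr11 and Uqcrc1), against 2.71% of 32851 promoters. The ETS letters were in 11 (33.3%), against 8.86%, and the E-box in 2 (6.1%, Atp5b and Cox8b), against 16.3%. The median GC content was 56.3% in these promoters and 52.7% in all. These matches describe letters in a window of fixed length and were not tested.

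In tibialis anterior the muscle isoform gave more reads than its ubiquitous partner in all 8 libraries and all 3 pairs, as counted through 1 amplicon each. Cox6a2, the muscle form of subunit 6a, read 637, 1128, 768 and 1109 RPM (WT1 to WT4) against 855, 874, 735 and 1035 RPM (KO1 to KO4). Cox6a1, its ubiquitous partner, read 146, 153, 138 and 179 RPM (WT) against 135, 129, 91.6 and 107 RPM (KO). Cox6a2 varied 1.77-fold across the libraries with no separation of the groups (log2 fold change -0.03, 95% interval -0.42 to 0.37), whereas each KO library was below each WT library in Cox6a1, the nearest being KO1 at 135 RPM and WT3 at 138 RPM. Cox6a1 had the smallest p of the 40 genes, with a log2 fold change of -0.42 (SE 0.14, 95% interval -0.73 to -0.11), and missed the threshold after adjustment (adjusted p = 0.307, and 0.196 to 1.0 over the alternatives). WT4, the highest library in Cox6a1, was also the highest in the bone, fibroblast and macrophage sums given above, whereas WT1, the second highest in those sums, read less Cox6a1 than WT2. Without WT1 and WT4 the log2 fold change was -0.34 (adjusted p = 1.0), and the part of these cell types in it was not tested.

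The ratio of Cox6a2 to Cox6a1 was 4.36, 7.38, 5.58 and 6.19 (WT1 to WT4) against 6.35, 6.78, 8.02 and 9.66 (KO1 to KO4). KO3 and KO4 exceeded all WT libraries, and KO1 and KO2 lay below WT2. On the log2 scale the ratio averaged 2.52 ± 0.32 in WT and 2.92 ± 0.27 in KO, a difference of 0.39 (exact two-sided permutation test, p = 0.1143, adjusted over the 3 pairs 0.3429). The smallest p this design allows is 0.0286.

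Cox7a1, the muscle form of subunit 7a, read 501, 626, 562 and 512 RPM (WT) against 685, 619, 577 and 537 RPM (KO) (log2 fold change 0.13, 95% interval -0.13 to 0.40). Cox7a2, the ubiquitous form, read 287, 396, 380 and 340 RPM (WT) against 398, 432, 390 and 401 RPM (KO). KO1, KO2 and KO4 were above every WT library in Cox7a2 and KO3 was below WT2 (log2 fold change 0.22, 95% interval -0.05 to 0.49, adjusted p = 0.664). With TMM scaling its value was 0.28 (adjusted p = 0.419), without WT1 it was 0.13 (adjusted p = 0.896) and without WT1 and WT4 it was 0.06 (adjusted p = 1.0). The ratio of the pair was the smallest of the 3, at 1.74, 1.58, 1.48 and 1.51 (WT) against 1.72, 1.43, 1.48 and 1.34 (KO). Its log2 mean was 0.65 ± 0.11 in WT and 0.57 ± 0.15 in KO, a difference of -0.08 that was smaller than the spread in either group (exact permutation p = 0.3429, adjusted 0.5144).

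Cox8b, the muscle form of subunit 8 and the most abundant COX amplicon, read 1936, 2762, 2511 and 2389 RPM (WT) against 2621, 2356, 2405 and 2304 RPM (KO). All KO libraries fell inside the WT range (log2 fold change 0.02, 95% interval -0.26 to 0.31). Cox8a, the ubiquitous form, read 2.96, 2.71, 1.597 and 1.22 RPM (WT) against 3.68, 2.25, 1.98 and 1.97 RPM (KO), which is 10 to 27 reads per library. At that depth counting error alone is large, and the interval of its log2 fold change ran from -0.35 to 0.68. The log2 ratio of the pair was 9.62 ± 0.51 in WT and 9.47 ± 0.24 in KO (difference -0.14, exact permutation p = 0.6, adjusted 0.6). Its linear value ran from 654 to 1961 over the WT libraries.

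**Figure D3:**
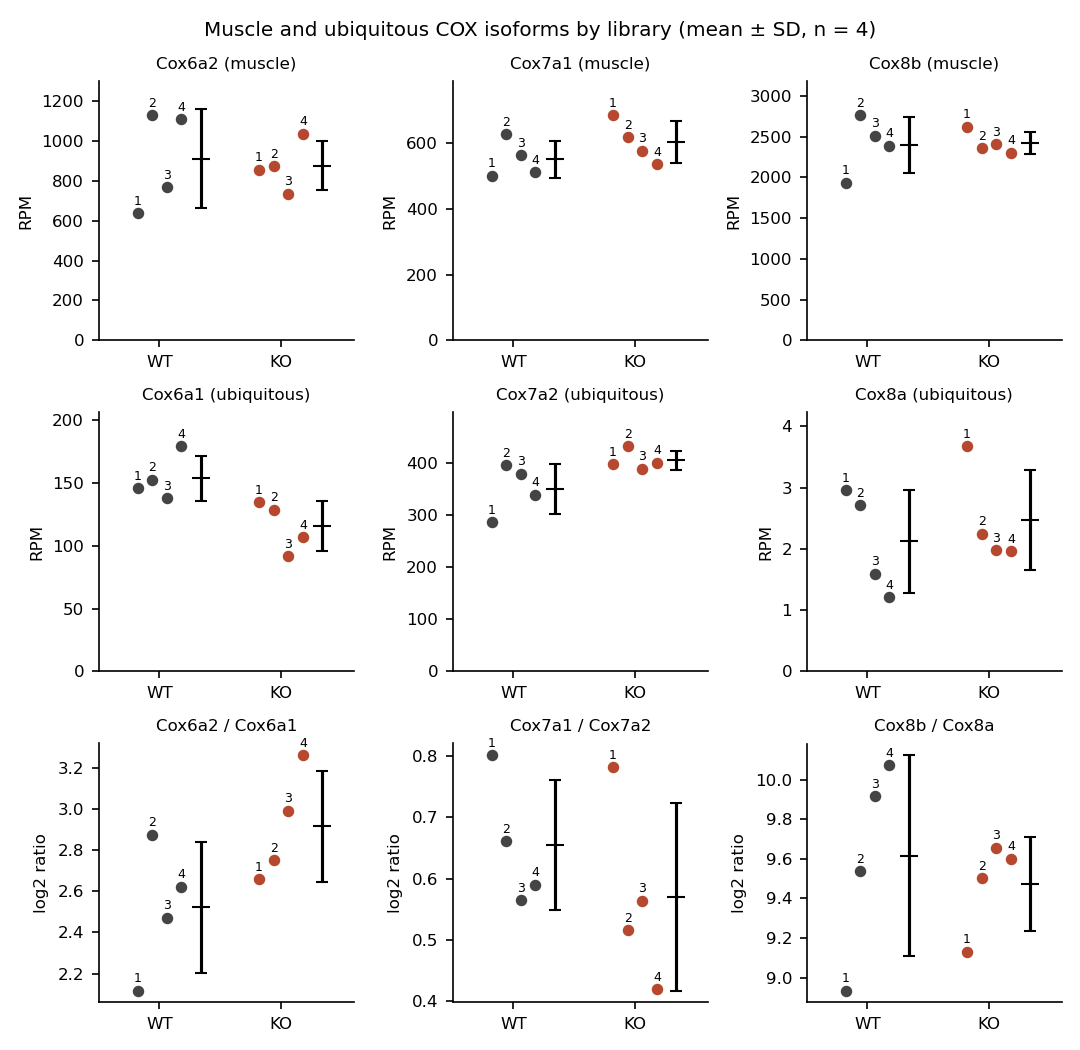
RPM of the 3 muscle isoforms (top row) and their ubiquitous partners (middle row), and the log2 ratio of each pair (bottom row, axes not from 0), per library (numbered points) with mean ± SD of 4. Cox6a1 is the panel in which WT (138 to 179 RPM) and KO (91.6 to 135 RPM) do not overlap, and all 3 ratios overlap.

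Of the 13 tested complex IV subunits, 7 had a log2 fold change above 0 and 6 one below. The median was 0.01, and -0.01 with quantile scaling and -0.10 without WT1 and WT4. The lower end of the range held Cox6a1, Cox5b and Cox7b. Cox7b, a nuclear-encoded subunit without a muscle form, read 1843, 2263, 1771 and 1909 RPM (WT) against 1734, 1670, 1597 and 1463 RPM (KO). The groups did not overlap, with WT3 and KO1 nearest to each other (log2 fold change -0.26, 95% interval -0.53 to 0.00, adjusted p = 0.543). With TMM scaling it was -0.20 (adjusted p = 0.600).

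Cox5b, a zinc-binding subunit on the matrix side given in full after its values were seen, read 615, 919, 678 and 693 RPM (WT) against 893, 530, 398 and 518 RPM (KO). KO2, KO3 and KO4 lay below every WT library and KO1 lay near WT2, the highest of all. It had the widest spread of the 40 genes, with a within-group SD of 0.39 on the log2 scale against a median of 0.17. Its log2 fold change was -0.36 (95% interval -0.82 to 0.09, adjusted p = 0.679), and without KO1 it was -0.59 (adjusted p = 0.17). RefSeq names 1 pseudogene after Cox5b, so its reading is uncertain if reads were shared.

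The constitutive subunits Cox4i1, Cox5a and Cox6b1 did not pass the test. Cox4i1, the common form of subunit 4, averaged 1103 ± 87.5 RPM (WT) against 1232 ± 133 RPM (KO), Cox5a 1504 ± 166 and 1593 ± 63.0 RPM, and Cox6b1 949 ± 29.9 and 957 ± 89.6 RPM. Cox4i1 stood at 0.16 on the log2 scale, and 0.22 with DESeq2 (adjusted p = 0.397). Cox6c was read at 11.2 to 17.2 RPM, far below the other constitutive subunits, with a log2 fold change of -0.15 (95% interval -0.50 to 0.21).

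Isoforms of other tissues gave few reads in both groups. Cox4i2, best known from lung, read 4.83, 6.86, 5.46 and 4.51 RPM (WT) against 4.51, 5.34, 5.45 and 4.75 RPM (KO), resting on 27 to 48 reads (log2 fold change -0.08, 95% interval -0.45 to 0.29). Cox6b2, the testis form of 6b, read 0.329, 0.429, 0.266 and 0.244 RPM (WT) against 0, 0.563, 0.743 and 0.579 RPM (KO), at most 6 reads. Cox7b2 had 1 read in KO1 (0.167 RPM) and Cox8c, the testis form of subunit 8, had 1 read in KO3 (0.124 RPM), and both were at 0 in the other 7 libraries. With no reads, a level up to the floor of 3 reads is still allowed, and no fold was computed for these 3 genes.

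The 6 COX assembly factors in the rule had a median log2 fold change of 0.08 and a range from -0.03 to 0.18, with 4 above 0 and 0 at an unadjusted p under 0.05. The median was -0.03 without KO2 and -0.04 without WT1 and WT4. Cox10, which farnesylates haem on the way to haem A, read 81.7, 102, 105 and 84.9 RPM (WT) against 117, 119, 97.5 and 89.8 RPM (KO) (log2 fold change 0.18, adjusted p = 0.805). Cox15, which completes haem A, read 14.1, 17.6, 11.3 and 15.7 RPM (WT) against 20.7, 19.7, 14.6 and 12.7 RPM (KO) (log2 fold change 0.18, adjusted p = 0.877). KO1 and KO2 were the highest libraries for both genes, while KO3 and KO4 lay in the WT range. KO1 and KO2 were again highest for Cox18, which inserts subunit 2 into the membrane, with 5.70, 7.29, 6.65 and 5.73 RPM (WT) against 8.02, 10.7, 5.57 and 4.98 RPM (KO) (log2 fold change 0.13). Cox14, which acts early on the catalytic subunit and is the most abundant of the 6, read 254, 269, 363 and 229 RPM (WT) against 243, 309, 303 and 272 RPM (KO), with both the highest and the lowest reading in WT. The copper-delivery factors Cox11 and Cox19 stood at -0.02 and -0.03. Annotated genes on the opposite strand overlap exons of Cox10, Cox11 and Cox15, likewise those of Cox5a, Cox6a2 (Itgad), Atp5a1 and Atp5j (Gabpa), and strand use in counting is not stated.

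Of the COX partners outside the rule 0 passed the test. Of 16 tested genes, 8 were above and 8 below 0, the median log2 fold change was -0.02, and 0 reached an unadjusted p under 0.05. Higd2a, an assembly factor, stood at -0.18 (adjusted p = 0.712), Cmc2 at 0.23 (adjusted p = 0.732) and Coa3 at -0.23 (adjusted p = 0.752). Of 4 tested genes of cytochrome c and haem supply, 1 was above 0 and 0 reached an unadjusted p under 0.05. Cpox, a haem synthesis enzyme, stood at 0.18 (adjusted p = 0.866), and Hccs, which attaches haem to cytochrome c, at -0.04 (adjusted p = 0.969).

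ATP synthase subunits were balanced around 0, with 5 of 10 log2 fold changes above it and 5 below, a median of 0.02, a range from -0.18 to 0.28 and 0 genes at an unadjusted p under 0.05. In the catalytic head, Atp5b, the beta subunit that carries the active sites, read 2841, 3328, 3151 and 3490 RPM (WT1 to WT4) against 3688, 3826, 3354 and 3453 RPM (KO1 to KO4). KO1 and KO2 were above all WT libraries, and KO3 and KO4 were below WT4 (log2 fold change 0.16, 95% interval -0.10 to 0.43, adjusted p = 0.797). Atp5a1, the alpha subunit, averaged 2602 ± 193 RPM (WT) against 2756 ± 187 RPM (KO), a difference within 1 SD. In the central stalk, Atp5c1, the gamma rotor shaft, read 426, 509, 446 and 531 RPM (WT) against 505, 472, 360 and 360 RPM (KO). Only KO3 and KO4 were below the WT range (log2 fold change -0.18, 95% interval -0.49 to 0.12, adjusted p = 0.809). Atp5d, the delta subunit of the stalk, read 124, 173, 159 and 138 RPM (WT) against 165, 209, 161 and 185 RPM (KO).

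KO2 and KO4 exceeded all WT libraries in Atp5d, and every KO library exceeded WT1, WT3 and WT4. Its log2 fold change of 0.28 was the highest of the 40 genes (SE 0.14, 95% interval -0.01 to 0.58, adjusted p = 0.576). After TMM scaling it was 0.34 (adjusted p = 0.387), without WT1 it was 0.20 (adjusted p = 0.803) and without WT1 and WT4 it was 0.11 (adjusted p = 1.0). Atp5e, the epsilon subunit beside it in the stalk, averaged 822 ± 30.3 RPM (WT) against 772 ± 80.5 RPM (KO).

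In the membrane part and the stator, Atp5k, subunit e at the dimer interface and the most abundant of the 44 amplicons by its mean over all 8 libraries (in KO alone Atp5b averaged more, 3580 against 3341 RPM), read 4515, 2837, 3570 and 3811 RPM (WT) against 2959, 2790, 3766 and 3847 RPM (KO). WT1 was the highest, and the other 7 libraries of both groups lay between 2790 and 3847 RPM (log2 fold change -0.14, 95% interval -0.49 to 0.22), and RefSeq names 4 pseudogenes after it. Atp5j2, subunit f, was the steadiest of the 40 genes, with a within-group SD of 0.09 on the log2 scale, and averaged 3072 ± 195 RPM (WT) against 2810 ± 158 RPM (KO) (log2 fold change -0.13, adjusted p = 0.855). Atp5g3, a gene of the c ring, averaged 2313 ± 390 and 2476 ± 194 RPM. The stator genes Atp5o (OSCP) and Atp5j (F6) stood at 0.16 and -0.04 on the log2 scale, and exons of Atp5o overlap those of Donson on the same strand. Among partners outside the rule, the assembly factors Tmem70 and Atpaf2 stood at 0.12 and -0.08, and Atpif1, the inhibitor of the enzyme, was read at 0.231 to 0.714 RPM and not tested. Atp5s and Atp5sl, named after the enzyme and not subunits of it, stood at 0.08 and 0.19, and the pseudogene Atp5c1-ps was read at 0 to 0.694 RPM.

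**Figure D4:**
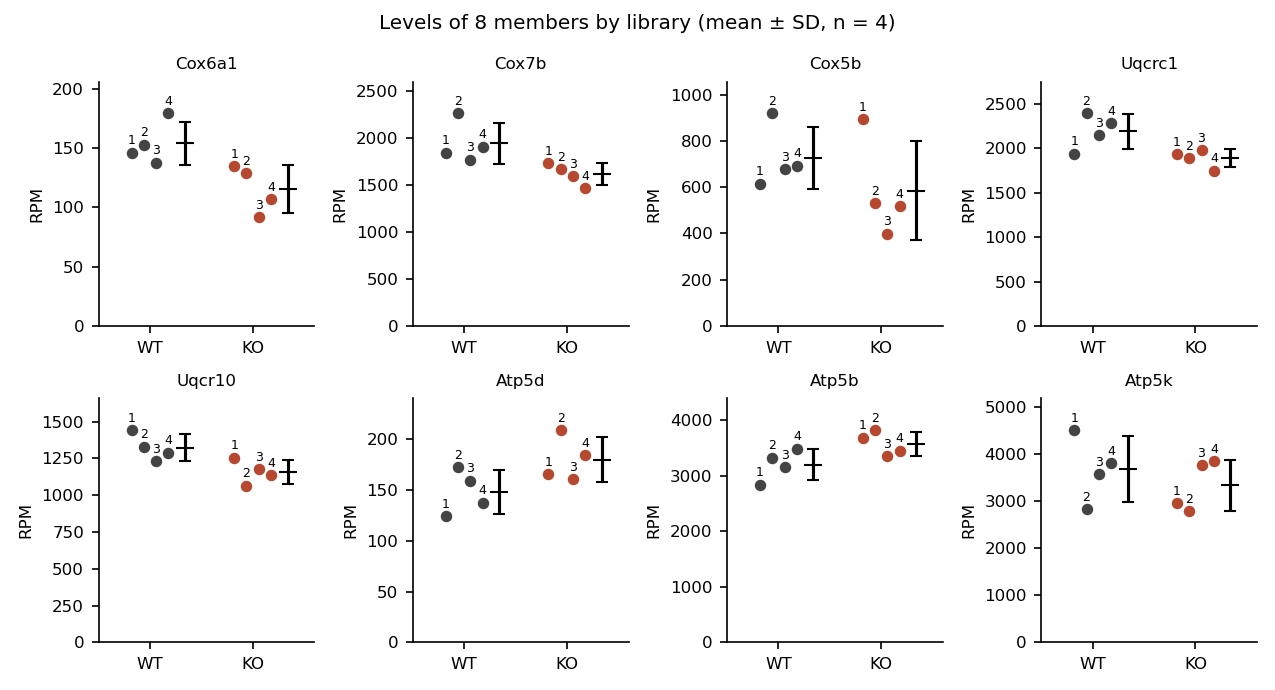
RPM per library (numbered points) with mean ± SD of 4 for 8 genes of the 3 complexes, axes from 0. Cox6a1 and Cox7b are the panels without overlap between WT and KO, and in Cox5b the KO1 library (893 RPM) stands away from the other KO libraries (398 to 530 RPM).

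Of the variation of the 40 genes over 8 libraries, 17.5% lay between the group means. Part of the variation lies between the means of 2 groups even without a group effect. That part was not computed, so the 17.5% is not a share due to genotype. The first principal axis held 41.7% of the variation and placed WT1 (0.47), KO3 (0.31), KO4 (0.29) and WT4 (0.22) at one end, WT3 (-0.01) in the middle and WT2 (-0.46), KO1 (-0.44) and KO2 (-0.38) at the other, so both ends held WT and KO libraries. Atp5k and Cox6c were highest at the first end, and Cox18, Uqcrq, Cox5b, Atp5o and Cox11 at the other. Summed fast fibre markers were likewise higher in WT1, WT4, KO3 and KO4 (189061 to 208346 RPM) than in the others (136925 to 171920 RPM). Sequencing depth split the libraries in the same way, at 8079897 to 9119006 reads against 5983175 to 7513761 reads. The part of fast fibre markers or of depth in the axis was not tested. Slow fibre markers did not follow this order, with sums of 180, 293, 181 and 319 RPM (WT1 to WT4) against 223, 500, 300 and 864 RPM (KO1 to KO4). At an unadjusted p under 0.05, 3 of 6 tested slow markers were higher in KO, against 0.663% of all targets. None of the 6 passed an adjusted p of 0.05, and each overlapped between the groups. Tnnc1, for example, read 11.4, 18.7, 3.47 and 66.4 RPM (KO1 to KO4).

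The second axis held 22.9% and separated WT1, WT2, WT4 and KO1 (0.13 to 0.51) from WT3, KO2, KO3 and KO4 (-0.10 to -0.53). On this axis KO2, KO3 and KO4 lay below every WT library, and KO1 lay above WT3 alone. Cox5b and Cox6a1 were highest at the first of these ends and Atp5d at the other. WT1 was the lowest WT library for 20 of the 40 genes, against 37.5% of all targets, and WT2 was the highest for 19, against 25.9%. In KO, KO1 was highest for 19 genes and KO4 lowest for 18. The shares over all targets were not computed for KO, so these counts cannot be set apart from the whole table. Of the KO libraries, KO1 had the highest TMM scaling factor (1.05) and KO4 the lowest (0.927). The median within-group SD on the log2 scale was 0.17 for the 40 genes and 0.24 for all tested targets. Of the 44 genes, 30 averaged at least 100 RPM.

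**Figure D5:**
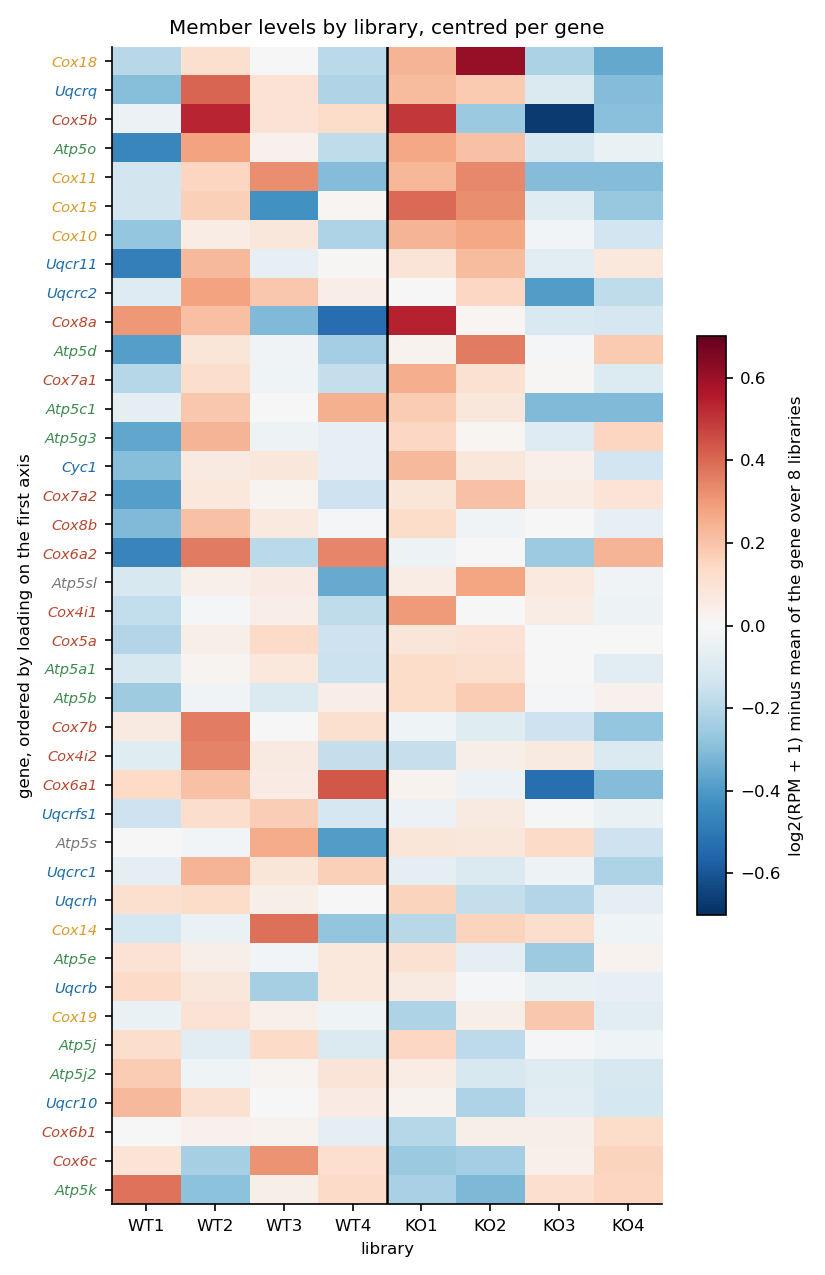
Level of each of the 40 tested genes (rows, ordered by loading on the first axis, label colours by class) in each library (columns), as log2(RPM + 1) minus the mean of the gene over 8 libraries. WT1, WT4, KO3 and KO4 mostly share the lower levels in the upper rows, and WT2, KO1 and KO2 the higher ones.

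The sums of the remaining marker lists overlapped between the groups. Sums were 304 to 348 RPM (WT) against 272 to 334 RPM (KO) for endothelial cells, 221 to 285 and 178 to 221 RPM for adipocytes, and 7.71 to 10.5 and 5.85 to 14.2 RPM for satellite cells. The adipocyte sums overlapped only between WT4 (220.9 RPM) and KO1 (221.5 RPM). Fabp4 made up most of each of these sums (200 to 259 RPM in WT, 163 to 213 RPM in KO). Pck1 and the untested Plin1, both at most 2.43 RPM, had every KO library below every WT library, as did 4.56% of all tested targets. Fabp4, Cfd, Adipoq and Lep overlapped between the groups. At an unadjusted p under 0.05, 2 of 3 tested adipocyte markers and 1 of 4 endothelial markers were lower in KO, against 8.56% of all targets. None of them passed an adjusted p of 0.05. The brown fat list summed to 2.26 to 4.57 and 1.97 to 2.51 RPM, and the erythroid list, read through Alas2 alone, to 6.80 to 15.1 and 5.79 to 14.98 RPM.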

How the data were processed

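Expression was measured in 8 libraries with the Ion AmpliSeq Transcriptome Mouse panel, per the labels' protocols, and the authors deposited 1 table of RPM values per target. Transcriptome Analysis Console is the tool listed, per the submitters' processing notes, and the sources used here give no aligner, build, counting rule or strand use. Low values were whole multiples of 1 read, so reads were recovered by division (100.0% of values within 0.1 of a whole read), and edgeR called 1 target and DESeq2 149 on them. Libraries were grouped by their labels, and the chi-square per degree of freedom between libraries of a group was 13.42 to 38.15. The labels speak of separate mice, and p-values measure the spread between them. Floors cover counting error only.

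Groups were compared with limma 3.58.1 (R 4.3.3, intensity trend) on log2(RPM + 1), a scale that understates changes of genes near 1 RPM, over the 11004 targets that averaged 1 RPM or more. Tests were two-sided, with Benjamini-Hochberg adjustment and a threshold of 0.05. Isoform ratios, with 1 RPM added to both values on the log2 scale, were compared by exact permutation (scipy 1.17.1). The procedure was tested on simulated data with the same spread for all genes. The seeded changes were larger than that of any tested gene of the rule. The simulation therefore does not show how well changes as small as theirs are found. The genes and all lists were chosen with earlier results of these data known. Every gene of the rule could be named, and values in every library were given for the isoform pairs, for the 3 smallest p and the most abundant gene per class, and for isoforms of other tissues. Up to 3 genes per partner list were named. Listed genes without a target in the table were not analysed here. As alternatives the pseudocount was set to 0.1 or 5 RPM and the filter was dropped or raised to 10 RPM. The others were TMM, median-ratio and quantile scaling, no trend, edgeR 4.0.16, DESeq2 1.42.0, the replicate number as a block, leaving out each library, and leaving out WT1 and WT4. Overlapping genes were read from GENCODE M21, and pseudogenes and promoters from RefSeq.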

Additional observations from a re-analysis of the deposited data

Results flagged for a closer look

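Within the KO group, 2 genes had 1 library far from the other 3, both times KO1. Cox8a stood at 3.68 RPM in KO1 and at 1.97 to 2.25 RPM in the others, a gap of 0.835 of the range of the group. Atp5j2 stood at 3044 RPM in KO1 and at 2714 to 2764 RPM in the others, a gap of 0.847. In all, 98 sets of 4 values were examined against Dixon's 95% limit, and chance alone gives about 1 in 20.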

How the results depend on the processing

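No gene of the 40 was called under any alternative run. The smallest adjusted p belonged to Cox6a1 except under median-ratio scaling (Atp5d, 0.364), without KO1 (Cox5b, 0.17) and without WT1 and WT4. In that last run the adjusted p did not rank the genes, all being tied. There the unadjusted limma p was 0.0761 for Cox7b and 0.0784 for Cox6a1. The number of calls over all targets was 6 with no filter, 1 under TMM, median-ratio or quantile scaling, without the trend, with edgeR and without WT1 and WT4, and 149 with DESeq2. Leaving out 1 library gave 1 to 130 calls, with 130 without WT3, 10 without KO1 and 1 without any of the others. Genes higher at an unadjusted p under 0.05 numbered 2 under TMM scaling and edgeR, 3 under median-ratio scaling, 1 under quantile scaling, 5 with DESeq2 and 0 to 1 with 1 library left out. Genes lower numbered 2 with pseudocounts of 0.1 and 5 RPM, the 10 RPM filter, quantile scaling and DESeq2, 4 with no filter, 0 without WT1 and WT4 and 1 to 3 with 1 library left out. Without WT1 and WT4 the medians were -0.153 for complex III, -0.100 for complex IV, -0.036 for complex IV assembly and -0.045 for ATP synthase subunits, and 12 of 40 genes lay above 0. The cause of these shifts was not tested.

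Deviations of same-numbered libraries correlated at 0.003, 0.257, 0.125 and 0.105, and those of the other WT and KO pairs at -0.325 to 0.279. Whether replicate numbers pair the libraries was not tested. With the replicate number as a block, 1 target was called and 1 gene was lower and 1 higher (Atp5d, adjusted p = 0.508).

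Directions of values near 0 turned in places. Cox6a2 was 0.034 under TMM scaling, 0.038 under median-ratio scaling and 0.004 with DESeq2. Under quantile scaling Cox4i2 was 0.069 and Cox8b -0.010. Without WT1 and WT4, Atp5k was 0.056, Cox14 -0.155 and Cox8b -0.123. With 1 library left out the ranges were -0.057 to 0.164 for Cox14, -0.076 to 0.095 for Cox8b, -0.151 to 0.020 for Cox4i2, -0.184 to 0.090 for Cox6a2 and -0.047 to 0.275 for Cox18. The difference of the Cox8b to Cox8a ratio ran from -0.371 to 0.009, the latter without WT4. The median of the assembly factors ran from -0.032 (without KO2) to 0.165. The difference of Cox6a2 to Cox6a1 ran from 0.259 to 0.512 and that of Cox7a1 to Cox7a2 from -0.154 to -0.033. Depth limits Cox8a, Cox4i2, Cox6b2, Cox7b2 and Cox8c, and amplicon design limits any comparison of levels between genes.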
